A study of Homo sapiens with 6 samples.

Results

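Ribosome biogenesis factors are the nucleolar proteins that make ribosomal RNA, cut and modify it, and fold it with ribosomal proteins into small and large subunits, without staying in the finished ribosome. The members are 52 human genes listed by name, of which 48 were measured by a probe set naming that gene alone, among 12165 genes measured in all. NOP58, GNL3, LTV1 and EBNA1BP2 were not analysed here. Each measured member was placed by its known role, which gave 17 large-subunit factors, 18 small-subunit factors, 7 proteins of the small nucleolar ribonucleoproteins (snoRNPs) and 6 other proteins, 5 of them nucleolar and the last METTL13. The list was drawn up with earlier results of these data known, and KNOP1 and METTL13, which are not classical assembly factors, were among the larger falls already seen.

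The cells were LNCaP, a human prostate cancer line that responds to androgen. They were exposed for 6 h to 20 µM gedunin, a limonoid natural product (3 arrays), or to DMSO, its solvent (3 arrays), and the labels number the arrays of each group as biological replicates. RNA was hybridised to an Affymetrix array, and the values are intensities after RMA, a method that removes background, puts the arrays on a common distribution and merges the probes of a set into a single value. Intensities of different probe sets cannot be set against each other as levels, so each gene is compared with itself across arrays. For 6 pairs of genes the ratio within an array is compared across arrays, which describes how alike the pair changed and not which gene is more abundant. Array medians on the 5 arrays compared lay between 31.11 and 31.81.

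By its markers the third array labelled DMSO was not from LNCaP cells, and it is shown apart from the comparison. The 7 measured luminal prostate markers summed to between 13350 and 13800 on the gedunin arrays and to 14050 and 14370 on DMSO 1 and 2, against 185.3 on DMSO 3. The 10 leukocyte markers summed to between 767.5 and 856.3 with gedunin and to 968.7 and 949.5 on DMSO 1 and 2, against 33020 on DMSO 3, where all 10 lay at least 8-fold above the mean of the other arrays. Gedunin was therefore compared on 3 arrays with DMSO 1 and 2, by limma across all 22215 probe sets, and "called" means a Benjamini-Hochberg adjusted p under 0.05 in that fit. Fold changes are log2, gedunin over DMSO, with limma's moderated standard error.

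Ribosome assembly begins in the nucleolus, where RNA polymerase I transcribes a long precursor RNA. The small-subunit processome, built around the U3 snoRNP, folds and cuts the part that becomes the small subunit, while a separate set of factors assembles the large subunit. Box C/D snoRNPs, with fibrillarin as methyltransferase, and box H/ACA snoRNPs, with dyskerin as pseudouridine synthase, modify the RNA. Many of these genes are known targets of the transcription factor MYC, and their output follows the growth rate of the cell.

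With gedunin, 17 of the 48 members fell and 0 rose. Among all genes tested, 9.35% were called lower and 8.22% higher, and 35.4% of the members were called lower. The median log2 fold change of the members was -0.27, beside -0.02 for all genes, and 39 of the 48 values were below 0, beside 53.6% of all genes. The falls were of moderate size, with 6 members called at 2-fold or more, namely RRS1, KNOP1, BYSL, IMP3, METTL13 and PWP2. Among all genes, 0.592% fell that far. The 17 and the 6 both include KNOP1 and METTL13, whose falls were known when the list was drawn up. The shares are therefore not independent of how the members were chosen. On 29 of the 48 members (60.4%) all 3 gedunin arrays lay below DMSO 1 and 2, which held for 26.0% of all genes. All 3 lay above for RRP15, RRP7A and NPM3, or 6.25% of the members and 20.2% of all genes.

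**Figure D1:**
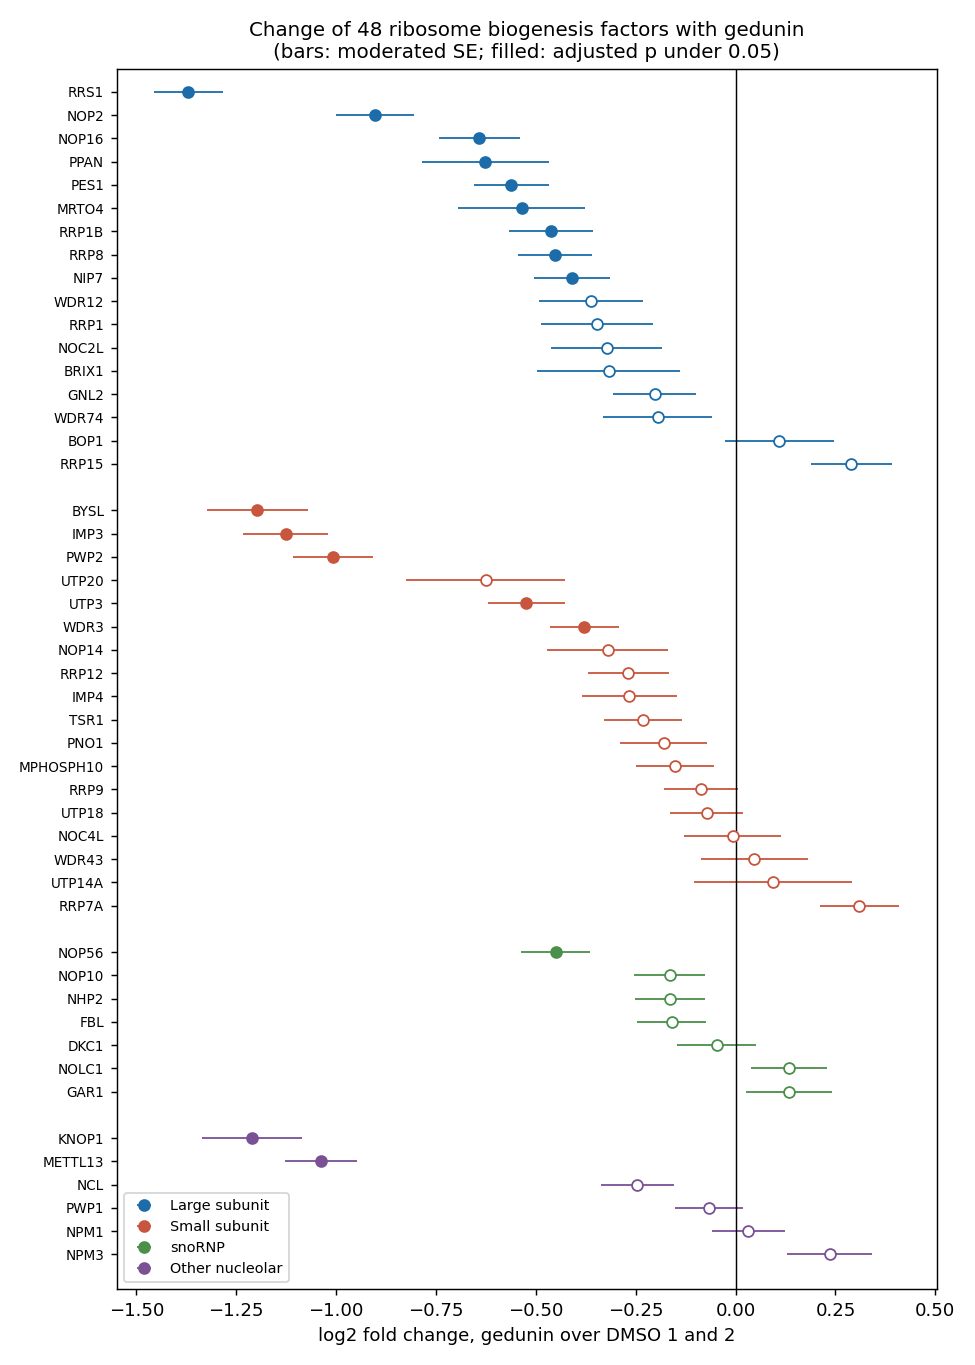
Log2 fold change, gedunin over DMSO 1 and 2, of the 48 measured members, grouped by role, with moderated standard errors as bars (3 gedunin and 2 DMSO arrays) and filled points for an adjusted p under 0.05. The 17 called members all lie left of 0, from RRS1 at -1.37 to WDR3 at -0.38, and the values to the right of 0 reach 0.31 (RRP7A) and are not called.

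The roles differed in how many members were called, although the difference between them was not tested. Of the large-subunit factors 9 of 17 fell (52.9%, median -0.41). Of the small-subunit factors 5 of 18 fell (27.8%, median -0.25), of the snoRNP proteins 1 of 7 (14.3%, median -0.16) and of the other proteins 2 of 6 (33.3%, median -0.16). The small-subunit factors nevertheless held 3 of the 6 falls of 2-fold or more, and the large-subunit factors 1. The large-subunit factors kept more calls than the small-subunit factors at a threshold of 0.01 and with DMSO 1 or DMSO 2 left out. The order turned with DMSO 3 included, the array that by its markers was not from LNCaP cells. At a threshold of 0.01, 5 of 17 large-subunit and 4 of 18 small-subunit factors were called. With DMSO 3 included, 1 of 17 and 3 of 18 were called. Without DMSO 1 the calls numbered 11 of 48 members, with 4.56% of all genes called lower, and small-subunit calls 3 and snoRNP calls 0. Without DMSO 2, 12 members were called, with 4.34% of all genes, and large-subunit calls numbered 5. In each of these fits the remaining DMSO array was assumed to vary like the gedunin arrays. The large-subunit and small-subunit medians were -0.483 and -0.236 without DMSO 1, and -0.356 and -0.198 without DMSO 2.

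The size of these counts depended on the reference. Centring each array on GAPDH and ACTB moved the median of all genes to -0.19. It made 32 of the 48 members lower and 0 higher, with 25.8% of all genes called lower. The split over all genes then stood at 651 higher and 3137 lower, beside 1000 higher and 1138 lower as normalized by RMA. Without probe sets ending in _x_at or _s_at, which may read several transcripts, 10 of 33 members with a remaining probe set were called lower, with 8.21% of all genes. ACTB, a cytoskeletal actin often used as a loading control, read 13255, 12559 and 12655 with gedunin against 9921 and 10630 on DMSO 1 and 2. ACTB was itself called higher (0.32 ± 0.09, limma adjusted p = 0.0347), a call lost when any of the 5 arrays was left out (adjusted p 0.0572 to 0.219). GAPDH, a glycolytic enzyme, read 10859, 10189 and 10189 against 10124 and 10411 (0.02 ± 0.09, adjusted p = 0.918).

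**Figure D2:**
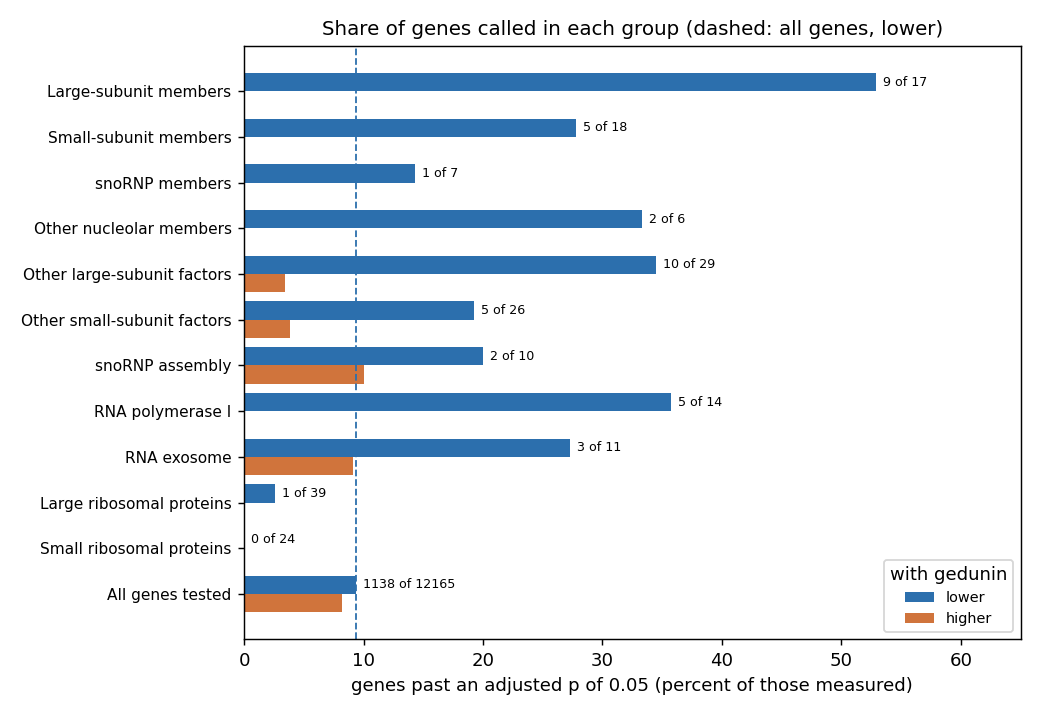
Percent of measured genes called lower (blue) or higher (orange) with gedunin in each role group, in further gene lists of the pathway and among all genes, with the count called lower at each bar. Large-subunit members stand at 52.9%, the dashed line marks the 9.35% of all genes, and ribosomal proteins lie below it with 1 of 39 and 0 of 24.

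Among the large-subunit factors, RRS1 showed the largest change of any member. RRS1, which helps build the ribonucleoprotein of the smallest large-subunit rRNA into the precursor, read 81.6, 87.7 and 85.2 with gedunin against 218 and 221 on DMSO 1 and 2. The arrays of each group lay close together and far from the other group. The log2 fold change was -1.37 ± 0.09 (limma adjusted p = 4.69e-06), which left 38.7% of the DMSO level and ranked as fall number 13 among all 12165 genes. DMSO 3 read 232, close to the other DMSO arrays.

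NOP2, a methyltransferase of large-subunit rRNA, read 127, 121 and 134 with gedunin against 222 and 255 on DMSO 1 and 2. Its value on DMSO 3 was 447. It fell by 0.90 ± 0.10 (limma adjusted p = 1.84e-04). NOP16, a nucleolar protein of early large-subunit precursors, read 157, 175 and 172 against 283 and 243 (-0.64 ± 0.10, adjusted p = 0.00195). A further NOP16 probe set also fell (-0.52 ± 0.12, adjusted p = 0.0182) and the remaining probe set, near the lower quartile of intensity, did not pass (-0.04 ± 0.10, adjusted p = 0.876). For both genes every gedunin array lay below every DMSO array.

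PPAN, the human relative of a yeast large-subunit assembly factor, was called with a wide spread between arrays. It read 55.2, 38.9 and 57.8 with gedunin against 82.4 and 72.0 (-0.63 ± 0.16, limma adjusted p = 0.0251), and gedunin 2 was the low array. The call was lost without DMSO 1 (adjusted p = 0.201) and without DMSO 2 (adjusted p = 0.0835). PPAN also forms a readthrough transcript with its neighbour P2RY11, which its probe set may read. MRTO4, a relative of the ribosomal stalk protein that holds its place during assembly, read 151, 164 and 108 against 208 and 194. The fall of 0.54 ± 0.16 only just passed (adjusted p = 0.0485) and was lost without DMSO 1 (adjusted p = 0.256), without DMSO 2 (adjusted p = 0.163) and without gedunin 1 (adjusted p = 0.0672).

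The remaining calls were smaller. RRP1B, a nucleolar partner of protein phosphatase 1, read 122, 117 and 118 with gedunin against 182 and 148 (-0.46 ± 0.10, limma adjusted p = 0.0144). Without DMSO 1 it was not called (adjusted p = 0.152). Its paralog RRP1 read 69.3, 48.7 and 60.8 against 70.8 and 79.5, with groups that did not overlap but lay close (-0.35 ± 0.14, adjusted p = 0.141). RRP8, another methyltransferase of large-subunit rRNA, fell by 0.45 ± 0.09 (adjusted p = 0.00842), and NIP7, a large-subunit synthesis factor, by 0.41 ± 0.09 (adjusted p = 0.0160). Both of these calls were lost without DMSO 2 (adjusted p = 0.0992 and 0.146). NIP7 read 18.3, 19.9 and 17.9 against 23.6 and 26.0, under the median of the arrays, a range in which RMA shrinks fold changes.

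PES1, BOP1 and WDR12 form the PeBoW complex, which large-subunit rRNA processing needs, and 1 of the 3 was called. PES1 read 94.2, 102 and 94.2 with gedunin against 151 and 136, and fell by 0.56 ± 0.09 (limma adjusted p = 0.00277). WDR12 read 225, 242 and 195 against 249 and 320 (-0.36 ± 0.13, adjusted p = 0.0994). BOP1 read 99.3, 118 and 96.4 against 83.6 and 112, so its groups overlapped (0.11 ± 0.14, adjusted p = 0.680), and its second probe set gave 0.20 ± 0.13 (adjusted p = 0.406). Without DMSO 1 the sign of the BOP1 value turned (-0.10). The log2 ratio of PES1 to BOP1 within an array was -0.08, -0.21 and -0.03 with gedunin against 0.85 and 0.28 on DMSO 1 and 2. The groups did not overlap and differed by -0.67 (exact permutation test, two-sided, p = 0.20). That is the smallest p that 3 against 2 arrays allow, here and for the 5 other pairs compared. For PES1 over WDR12 the groups overlapped (difference -0.20, exact p = 0.60).

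GNL2, a nucleolar GTPase, read 221, 208 and 196 with gedunin against 261 and 220 (-0.20 ± 0.10, limma adjusted p = 0.253), and gedunin 1 and DMSO 2 crossed. The 4 large-subunit members not yet named that were not called lay between -0.32 (NOC2L) and 0.29 (RRP15), with BRIX1 and WDR74 between them. RRP15 read 160, 157 and 172 against 122 and 145, so all gedunin arrays were above DMSO, and its adjusted p was 0.0919.

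**Figure D3:**
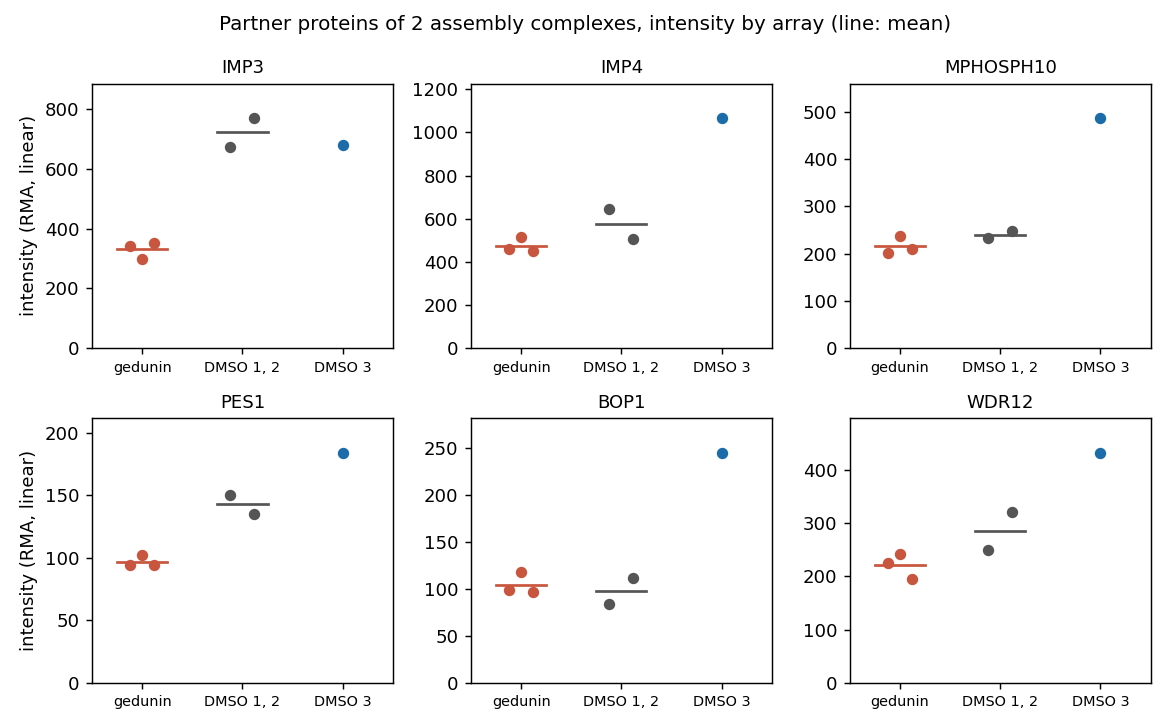
RMA intensity on a linear scale for the U3 snoRNP proteins IMP3, IMP4 and MPHOSPH10 (upper row) and for the PeBoW proteins PES1, BOP1 and WDR12 (lower row), with points for arrays and lines for means of gedunin and of DMSO 1 and 2. The groups are far apart for IMP3 and apart for PES1, they cross for IMP4, MPHOSPH10 and BOP1, and DMSO 3 is the highest array in 5 of the 6 panels, the exception being IMP3.

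Among the small-subunit factors, 3 genes fell by 2-fold or more. BYSL, or bystin, which matures the small-subunit precursor, read 42.3, 43.0 and 49.0 with gedunin against 89.4 and 117 on DMSO 1 and 2. It fell by 1.20 ± 0.13 (limma adjusted p = 1.56e-04) to 43.6% of the DMSO level. PWP2, a subunit of the UTP-B complex of the processome, read 37.6, 41.0 and 37.5 against 72.0 and 83.9 (-1.01 ± 0.10, adjusted p = 1.04e-04). In both genes the highest gedunin array was far below the lowest DMSO array, and DMSO 3, at 147 (BYSL) and 92.3 (PWP2), was above all of them.

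IMP3 is bound with IMP4 and MPHOSPH10 as a trimer of the U3 snoRNP. IMP3 read 343, 299 and 352 with gedunin against 676 and 771, and fell by 1.13 ± 0.11 (limma adjusted p = 7.44e-05). Its partner IMP4 read 458, 515 and 452 against 644 and 504 (-0.27 ± 0.12, adjusted p = 0.185). MPHOSPH10 read 202, 237 and 211 against 232 and 247 (-0.15 ± 0.10, adjusted p = 0.381). For both partners the groups overlapped by 1 gedunin array. The log2 ratio of IMP3 to IMP4 was -0.41, -0.78 and -0.36 with gedunin against 0.07 and 0.61 on DMSO 1 and 2, a difference of -0.86. That of IMP3 to MPHOSPH10 was 0.77, 0.34 and 0.74 against 1.54 and 1.64, a difference of -0.98. Neither pair overlapped between groups (exact permutation p = 0.20 each, two-sided, the smallest possible).

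UTP3, a processome protein also known as SAS10, read 311, 332 and 366 with gedunin against 491 and 474 (-0.52 ± 0.10, limma adjusted p = 0.00505). WDR3, a further UTP-B subunit, read 156, 144 and 147 against 190 and 197 (-0.38 ± 0.09, adjusted p = 0.0158). Neither call was kept without DMSO 1 (UTP3 adjusted p = 0.0576, WDR3 adjusted p = 0.0785), and WDR3 was also lost without DMSO 2 (adjusted p = 0.115). UTP18, which sits in the same UTP-B complex as PWP2 and WDR3, read 662, 651 and 701 against 671 and 742 with overlapping groups (-0.07 ± 0.09, adjusted p = 0.685).

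UTP20, a large processome protein, was the member nearest to a call among those not passing (-0.63 ± 0.20, limma adjusted p = 0.0635). It read 61.8, 36.6 and 40.7 with gedunin against 78.4 and 61.8, and gedunin 1, the high array, lay just under DMSO 2. Without gedunin 1 it was called (-0.85 ± 0.13, adjusted p = 0.00391). At the other end, RRP7A, a small-subunit factor, read 71.2, 78.3 and 79.0 against 57.1 and 66.0 (0.31 ± 0.10, adjusted p = 0.0675). RRP7A has a near-identical pseudogene, RRP7BP, so its value is uncertain. The other 8 small-subunit members that were not called lay between -0.32 (NOP14) and 0.09 (UTP14A), with RRP12, TSR1, PNO1, RRP9, NOC4L and WDR43 between them, and UTP14A may share signal with its retrogene copy UTP14C.

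The snoRNP proteins had the smallest share of calls among the roles. NOP56, a core protein of the box C/D snoRNP, was the member called, with 649, 627 and 636 with gedunin against 899 and 844 on DMSO 1 and 2 (-0.45 ± 0.09, limma adjusted p = 0.00590). The groups were well separated, although without DMSO 1 the value of -0.40 did not pass (adjusted p = 0.0683). Its second, dimmer probe set gave -0.29 ± 0.12 (adjusted p = 0.142). FBL, the fibrillarin methyltransferase of the same particle, read 1234, 1241 and 1180 against 1397 and 1326 (-0.16 ± 0.09, adjusted p = 0.279).

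All 4 core proteins of the box H/ACA snoRNP were measured and none was called. NOP10 read 2537, 2301 and 2457 with gedunin against 2740 and 2708 (-0.16 ± 0.09, limma adjusted p = 0.277). NHP2 read 1889, 1868 and 1961 against 2052 and 2222 (-0.16 ± 0.09, adjusted p = 0.275). In both, the gedunin arrays lay slightly below DMSO 1 and 2. DKC1, the dyskerin pseudouridine synthase, had -0.05 ± 0.10 and GAR1 0.13 ± 0.11. NOLC1, a nucleolar chaperone of snoRNPs, had 0.13 ± 0.10 on the probe set used (adjusted p = 0.429), while the dimmest of its 3 probe sets was called higher, with 232, 227 and 241 against 163 and 177 (0.46 ± 0.09, adjusted p = 0.00648).

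Of the other proteins, KNOP1 and METTL13 fell. KNOP1, a lysine-rich nucleolar protein of little-known function, read 39.1, 29.6 and 38.0 with gedunin against 80.1 and 83.4 (-1.21 ± 0.12, limma adjusted p = 1.35e-04). METTL13, a methyltransferase of translation elongation factor eEF1A, read 82.4, 75.5 and 82.1 against 159 and 169 (-1.04 ± 0.09, adjusted p = 4.44e-05). Every further probe set of these genes was also called lower, at -1.28 for KNOP1 and at -1.15 and -0.98 for METTL13.

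The abundant nucleolar proteins gave other values. NCL, or nucleolin, read 1917, 1771 and 1905 with gedunin against 2111 and 2312, so the groups did not overlap, and it was not called (-0.25 ± 0.09, limma adjusted p = 0.111). PWP1, a nucleolar WD-repeat protein, read 560, 537 and 544 against 566 and 579 (-0.07 ± 0.08, adjusted p = 0.69), and its gedunin arrays lay narrowly below. NPM1, or nucleophosmin, read 4596, 4260 and 4064 against 4162 and 4254 with overlapping groups (0.03 ± 0.09, adjusted p = 0.875), and without gedunin 1 its sign turned (-0.02). NPM1 has many processed pseudogenes that its probe sets may share. Its paralog NPM3 read 199, 216 and 243 against 177 and 195 (0.24 ± 0.11, adjusted p = 0.187). The log2 ratio of NPM1 to NPM3 overlapped between groups (difference -0.20, exact permutation p = 0.40), as did that of RRP1B to RRP1 (difference -0.12, exact p = 0.60).

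Over all members, 19 had more than 1 probe set. Among the 6 of these that were called, another probe set was also called lower for 3 (KNOP1, METTL13 and NOP16) and 0 had a probe set called higher. For NOP56, RRP1B and RRP8 the further probe set did not pass. Among the 13 not called, a further probe set was called lower for 0 and higher for 1, NOLC1.

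**Figure D4:**
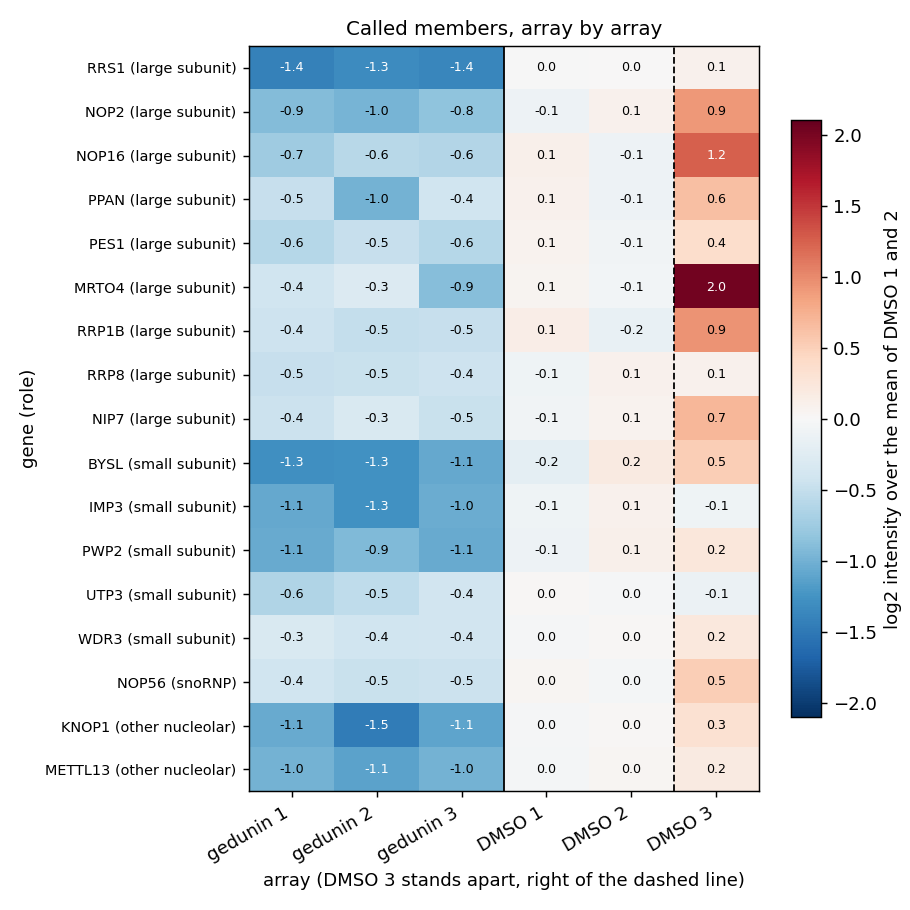
Log2 intensity of each array over the mean of DMSO 1 and 2 for the 17 called members, with gedunin arrays at the left, DMSO 1 and 2 in the middle and DMSO 3 right of the dashed line. Every gedunin cell is below 0, from -1.5 (KNOP1, gedunin 2) to -0.3, and DMSO 3 ranges from -0.1 (IMP3 and UTP3) to 2.0 (MRTO4).

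On DMSO 3, which carried leukocyte transcripts, most members read higher than on DMSO 1 and 2. This held for 39 of 48 (81.2%), beside 45.0% of all genes, and 5 members were below both. The median log2 difference of DMSO 3 from the mean of DMSO 1 and 2 was 0.38 over the members and 0.01 over all genes. The 3 gedunin arrays lay below DMSO 3 for 43 of the 48 members (89.6%), among them the 17 called, and for 42.0% of all genes. With DMSO 3 included (3 against 3 arrays), 6 members were called lower and 0 higher, with 0.353% of all genes lower and 1.32% higher. These 6 were RRS1 (-1.40), BYSL (-1.37), KNOP1 (-1.32), IMP3 (-1.10), METTL13 (-1.10) and PWP2 (-1.09), the same genes that fell by 2-fold or more without it. Whether the different cell content of DMSO 3 accounts for its higher values was not tested.

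Other genes of the pathway, taken from lists by role, were called lower more often than higher. These lists, like the members, were drawn up with earlier results of these data known. Of 90 measured genes in 5 lists, 25 fell (27.8%) and 4 rose (4.44%), with a median of -0.19. Among all genes, 9.35% were called lower and 8.22% higher, the shares to set beside each list. Of 29 other large-subunit factors, 10 fell and 1 rose, and of 26 other small-subunit factors, 5 fell and 1 rose. The RNA polymerase I list had 5 falls and 0 rises among 14 genes, the RNA exosome list 3 and 1 among 11, and the list of snoRNP assembly factors 2 and 1 among 10.

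Some single genes of these lists stood as far from DMSO as the members did. POLR1C, a subunit shared by RNA polymerases I and III, read 77.7, 90.4 and 73.6 with gedunin against 210 and 216 (-1.41 ± 0.10, limma adjusted p = 1.61e-05). GNL3L, a nucleolar GTPase, fell by 1.04 ± 0.17 (adjusted p = 0.00218), RCL1, which acts in small-subunit rRNA cleavage, by 0.85 ± 0.12 (adjusted p = 0.00122), and DIMT1, a dimethyltransferase of small-subunit rRNA, by 0.70 ± 0.09 (adjusted p = 5.42e-04). NVL, an ATPase of large-subunit assembly, fell by 0.56 ± 0.09 (adjusted p = 0.00232) and had 0.04 with DMSO 3 included. In the opposite direction, RSL24D1, a large-subunit assembly factor related to a ribosomal protein, read 803, 834 and 949 against 540 and 550 (0.66 ± 0.10, adjusted p = 0.00147). EXOSC8, a core subunit of the RNA exosome, rose by 0.71 ± 0.11 (adjusted p = 0.00152).

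Further calls in these lists were lost when a DMSO array was left out. Of these genes, TGS1 read under the median of the arrays, at 23.4, 25.3 and 25.9 with gedunin against 20.0 and 18.2. ESF1, a small-subunit factor (-0.68), ZNHIT6, which assembles box C/D snoRNPs (-0.73), SHQ1, a chaperone of dyskerin (-0.40), TGS1, which trimethylates the cap of small RNAs (0.38), and the exosome subunit EXOSC2 (-0.45) were called in the 5-array fit by limma. They were not called without DMSO 1 (adjusted p 0.0535 to 0.163) or without DMSO 2 (adjusted p 0.0623 to 0.229). POLR1E, an RNA polymerase I subunit (-0.57), was lost without DMSO 1 (adjusted p = 0.115). TAF1C, of the RNA polymerase I promoter factor SL1 (-0.50), and the exosome subunit EXOSC4 (-0.48) were lost without DMSO 2 (adjusted p = 0.109 and 0.142).

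Genes of the ribosomal proteins, which the members assemble, were seldom called. Of 39 measured large-subunit proteins 1 fell, RPL37A (-0.49 ± 0.11, limma adjusted p = 0.0140). Its probe set was dim, at 27.0, 33.2 and 27.4 with gedunin against 39.6 and 41.7, close to the median of the arrays. RPL37A was not called without DMSO 1 (-0.52) or without DMSO 2 (-0.45). Of 24 small-subunit proteins 0 were called, 0 of them at an unadjusted p of 0.05. The medians were -0.08 for the large-subunit and -0.09 for the small-subunit proteins. Small as they were, 34 of the 39 and 23 of the 24 values lay below 0, beside 53.6% of all genes. All 3 gedunin arrays lay below DMSO 1 and 2 for 19 of the 39 (48.7%) and 16 of the 24 (66.7%), beside 26.0% of all genes. Many ribosomal protein genes have near-identical pseudogenes that probe sets may share.

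Of 6 measured genes of the MYC network, 1 fell and 1 rose. MYC, the transcription factor that many of these genes answer to, read 609, 746 and 681 with gedunin against 1167 and 1301 on DMSO 1 and 2. Its value on DMSO 3 was 1345. It fell by 0.87 ± 0.11 (limma adjusted p = 4.97e-04) and the groups were far apart. MXD1, a MAX partner that opposes MYC, rose by 0.48 ± 0.12 (adjusted p = 0.0209) at levels under the median of the arrays. It read 27.6, 23.8 and 21.1 with gedunin against 17.7 and 16.8 on DMSO 1 and 2. Both DMSO values lay under the lowest lower quartile of the arrays, 19.4, so the gene may not have been detected there. The MXD1 call was lost without DMSO 1 (adjusted p = 0.0972), without DMSO 2 (adjusted p = 0.148) and without gedunin 1 (adjusted p = 0.0520). The other 4 were not called: MAX, the partner of MYC (-0.11), MYCN, a MYC paralog (0.03), and MXI1 (0.06) and MNT (0.09), which like MXD1 pair with MAX and oppose MYC. Whether the fall of MYC bears on the members was not tested.

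The promoters of the members were examined for what they share. RefSeq promoter windows (GRCh38.p14) from 250 bases before to 50 after the annotated gene start matched 42 of the 48 measured members. The E-box CACGTG, the motif bound by MYC with MAX and by other factors of its class, reads the same on both strands. It lay in 18 of the 42 windows (42.9%), beside 8.88% of 15843 protein-coding promoters and 9.38% of the 9597 whose genes were measured on the array. In 16 of these 18 members an E-box began within 20 bases before to 50 bases after the start. How often E-boxes of other promoters begin in that stretch was not counted, so the position is not read as a trait of the members. Called members had it in 6 of 15 windows (40%) and members not called in 12 of 27 (44.4%). By role it lay in 10 of 16 small-subunit, 4 of 14 large-subunit, 2 of 6 snoRNP and 2 of 6 other windows. Ribosomal protein windows held it in 2 of 32 for the large and 1 of 21 for the small subunit.

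The 6 called members with an E-box are shown first and then IMP4 and UTP18, which were not called. They are shown together because the same letters stand at the start of genes that fell and of genes that did not pass. IMP4 and UTP18 each hold a further E-box outside the printed bases, at -203 (IMP4) and -89 (UTP18) from the start. NOP10, with E-boxes at -170 and -11, was not called and is not printed, like the other members not called. Each line gives the last 100 bases of the window on the gene's strand, 5′ to 3′, so that the start lies in the middle, and capitals mark the E-box.
KNOP1 (chr16:19718178-19718277, minus strand): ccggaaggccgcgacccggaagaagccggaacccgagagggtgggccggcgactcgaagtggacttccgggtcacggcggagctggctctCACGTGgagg
BYSL (chr6:41921449-41921548, plus strand): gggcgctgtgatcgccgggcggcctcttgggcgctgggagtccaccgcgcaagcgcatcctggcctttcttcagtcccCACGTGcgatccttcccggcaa
PWP2 (chr21:44107349-44107448, plus strand): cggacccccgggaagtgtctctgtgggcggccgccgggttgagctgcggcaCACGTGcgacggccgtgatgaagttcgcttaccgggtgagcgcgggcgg
NOP2 (chr12:6568242-6568341, minus strand): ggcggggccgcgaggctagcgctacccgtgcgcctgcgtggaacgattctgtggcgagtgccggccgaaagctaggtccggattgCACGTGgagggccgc
PES1 (chr22:30591861-30591960, minus strand): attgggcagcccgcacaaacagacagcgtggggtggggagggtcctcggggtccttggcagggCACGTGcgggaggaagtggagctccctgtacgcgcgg
MRTO4 (chr1:19251755-19251854, plus strand): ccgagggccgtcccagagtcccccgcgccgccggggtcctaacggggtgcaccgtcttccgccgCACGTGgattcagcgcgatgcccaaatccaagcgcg
IMP4 (chr2:130342847-130342946, plus strand): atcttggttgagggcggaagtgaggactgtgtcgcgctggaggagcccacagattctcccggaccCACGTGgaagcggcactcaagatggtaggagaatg
UTP18 (chr17:51260496-51260595, plus strand): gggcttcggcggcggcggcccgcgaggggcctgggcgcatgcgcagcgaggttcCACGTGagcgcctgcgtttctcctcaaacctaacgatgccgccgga

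**Figure D5:**
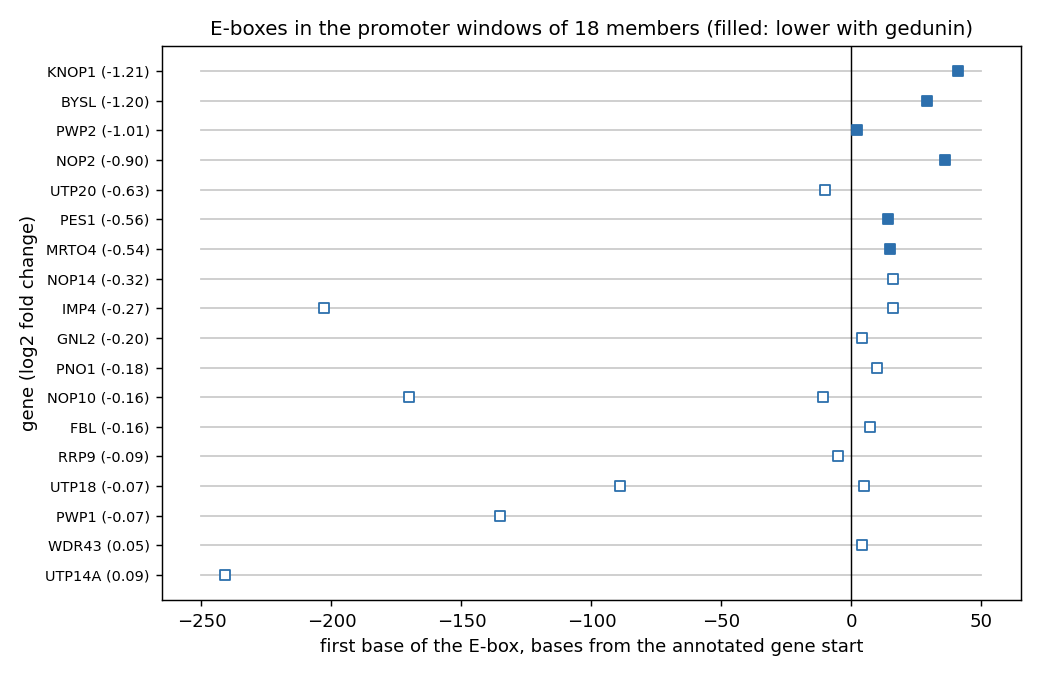
First base of each E-box relative to the annotated gene start in the promoter windows of 18 members, ordered by log2 fold change with the largest fall at the top, filled where the gene was called lower. The boxes of the 6 called members (KNOP1, BYSL, PWP2, NOP2, PES1 and MRTO4) all lie between 2 and 41 bases after the start, and those of the members not called lie on both sides of it.

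In the printed windows the E-box began 41 bases after the start in KNOP1, 36 in NOP2, 29 in BYSL, 15 in MRTO4, 14 in PES1 and 2 in PWP2. It began 16 bases after it in IMP4 and 5 in UTP18. The same genes had log2 fold changes of -1.21 (KNOP1), -0.90 (NOP2), -1.20 (BYSL), -0.54 (MRTO4), -0.56 (PES1), -1.01 (PWP2), -0.27 (IMP4) and -0.07 (UTP18).

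Other motifs were searched on both strands in the same windows. The letters CCGGAAG, which ETS factors bind, lay in 16 of 42 members (38.1%) beside 15.3% of the promoters measured on the array, and in 6 of 15 called and 10 of 27 other members. AAGATGG, bound by YY1, lay in 6 (14.3% beside 7.10%), in 2 of 15 called and 4 of 27 other members. TGCGCA, the core of the NRF1 motif, lay in 10 (23.8% beside 11.7%), in 0 of 15 called and 10 of 27 other members. This core was the second form of the NRF1 motif to be counted: a longer form, searched first, lay in fewer members, and the core took its place after those counts had been seen, so nothing is read from its split. CCAAT, bound by NF-Y, lay in 14 (33.3% beside 37.4%), in 7 of 15 called (46.7%) and 7 of 27 other members (25.9%). GAANNTTC, a unit of the heat shock element, lay in 1 (2.38% beside 5.24%), in 0 of 15 called and 1 of 27 other members. The splits between called and other members were not tested. In the members' windows the NRF1 core overlapped an E-box in 1 member and the other motifs in none. All 6 motifs, the E-box included, were chosen with the members' fold changes known. A match is a run of letters and does not show binding.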

How the data were processed

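The authors deposited 1 intensity per array and probe set on a linear scale, with RMA named, without a version, in the submitters' processing notes. The set of arrays given to RMA together is not stated. The log2 of the deposited intensity was taken. Probe sets were named from the platform annotation of 2016: 19724 of 22215 name 1 gene, 568 several and 1923 are not listed. Where a gene had several probe sets, that with the largest mean of the 6 arrays stood for it.

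Gedunin (3 arrays) was compared with DMSO 1 and 2 by limma 3.58.1 in R 4.3.3 (lmFit and eBayes without trend, no filter), adjusted over all probe sets, at an adjusted p under 0.05. Differences between pairs of genes were tested by exact permutation over arrays (scipy 1.17.1). The code was tested on simulated data.

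The members and lists were chosen with earlier results of these data known. In each role group the members with the largest called falls (up to 6), the 2 brightest not called and fixed partner genes were named, with up to 3 called genes per further list. RRP8, NIP7, UTP20, RRP7A, RRP15, FBL, NOLC1, DKC1, GAR1, PWP1 and the 4 regulators not called were given values, and the members at the ends of ranges or listed beside them were named, after values were seen. Precision is limited by having 5 arrays to compare, and the p-values reflect only the spread among them. Alternatives were a filter on dim probe sets, other centrings and normalization, a replicate block, other variance models, array weights, other probe set choices, a pseudocount of 16, a threshold of 0.01 and leaving out arrays. Promoter motifs were chosen after the fold changes were known, and the NRF1 core replaced a longer form that had already been counted.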

Additional observations from a re-analysis of the deposited data

Results flagged for a closer look

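On the array labelled DMSO 3, which is outside the main comparison and enters the 6-array alternative and the choice of probe sets, 5 members read at least 2-fold above the higher of DMSO 1 and 2. The ratio was 3.91 for MRTO4, 2.85 for PNO1, 2.37 for WDR43, 2.21 for NOP16 and 2.19 for BOP1. No member read 2-fold below the lower of DMSO 1 and 2 there (0 of 48). All 10 leukocyte markers were at least 8-fold higher on that array than on the mean of the other 5, and their part in these values was not tested.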

How the results depend on the processing

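With 17 members lower and 0 higher as the starting point, the count of lower members was 16 to 19 under median centring, a second quantile normalization, array weights, eBayes with trend and robust, the filter on dim probe sets, the mean of all probe sets, the choice by 5 arrays and the pseudocount of 16. It moved to 6 with all 6 arrays, 32 when centred on GAPDH and ACTB and 10 of 33 measured members without probe sets ending in _x_at or _s_at, and leaving out 1 array gave 11 to 17. Members called higher numbered 1 with the filter (RRP7A), 1 with the second quantile normalization (RRP7A) and 2 with the mean of all probe sets (NOLC1 and RRP7A), and leaving out 1 array gave 0. All genes called numbered 2138, and 204 with all 6 arrays, 3788 centred on GAPDH and ACTB, 1271 without those probe sets, 1207 at a threshold of 0.01 and 1152 to 1935 without 1 array. Of these, 1138 were lower, and 43, 3137, 698, 559 and 528 to 1000 under the same alternatives.

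Large-subunit calls numbered 1 with all 6 arrays, 14 centred on GAPDH and ACTB, 5 without the _x_at and _s_at probe sets, 5 at 0.01 and 5 to 9 without 1 array. Small-subunit calls were 3, 11 and 3 under the first 3 of these and 3 to 6 without 1 array, and snoRNP calls 0, 4 and 0, and 0 to 1. The large-subunit median was -0.641 with all 6 arrays, -0.58 centred on GAPDH and ACTB, -0.339 with the pseudocount, -0.361 with the mean of all probe sets, -0.34 without those probe sets and -0.483 to -0.356 without 1 array. At 0.01 the small-subunit calls numbered 4. The small-subunit median was -0.468 with all 6 arrays and -0.418 with that centring. The snoRNP median was -0.0926 and -0.33 under these, 0.0432 without the _x_at and _s_at probe sets and -0.158 to -0.107 without 1 array. The median of the other proteins was -0.297 and -0.326 under these, -0.206 after a second quantile normalization and -0.71 without those probe sets.

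Signs were followed for the 48 members, the other pathway genes named with values, GAPDH, ACTB and the 6 regulators. Of those called in the 5-array fit, NVL changed sign, with all 6 arrays (0.0355). The values that changed sign without being called were the following. With all 6 arrays they were NPM1 (-0.0485), BOP1 (-0.338), RRP7A (-0.0107), WDR43 (-0.386) and UTP14A (-0.196). Centred on GAPDH and ACTB they were NPM1 (-0.138), BOP1 (-0.0605), GAR1 (-0.0351), NOLC1 (-0.0358), WDR43 (-0.123), UTP14A (-0.0756), GAPDH (-0.15), MYCN (-0.14), MXI1 (-0.107) and MNT (-0.0753). With the mean of all probe sets they were NPM1 (-0.0286) and UTP14A (-0.00146), and without the _x_at and _s_at probe sets NOP14 (0.00289) and MAX (0.0665). NOC4L, at -0.01 in the 5-array fit, turned with array weights (0.00138), median centring (0.0134) and the second quantile normalization (0.0175). Without 1 array the range crossed 0 for NPM1 (-0.0161 to 0.0726), BOP1 (-0.0981 to 0.317), DKC1 (-0.108 to 0.0201), WDR43 (-0.0948 to 0.121), UTP14A (-0.145 to 0.259), NOC4L (-0.102 to 0.11), GAPDH (-0.0109 to 0.0399, with -0.000448 without DMSO 1) and MYCN (-0.0476 to 0.107). Except where the construction means fewer samples or fewer genes, the cause was not tested.

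Whether the shared replicate numbers pair the arrays could not be settled. The deviations of gedunin 1 and DMSO 1 from their group means correlated at -0.03 and those of gedunin 2 and DMSO 2 at 0.04. With 2 DMSO arrays compared, the deviation of DMSO 1 is that of DMSO 2 with the sign turned. Both correlations therefore rest on the same DMSO difference. With the replicate block 16 members were lower, of which 15 were among the 17, and the large-subunit median was -0.369. In that fit gedunin 3 had no DMSO partner, since DMSO 3 was left out, so its block term absorbed it. The large-subunit median was therefore the same as without gedunin 3 (-0.369). The block is thus not a paired check on all the arrays compared.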
